A study of Mus musculus with 6 samples.

Results

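Retrotransposon-derived gag genes were examined in primary mouse embryonic fibroblasts (MEFs) from Kansl1 fl/fl embryos with and without an inducible Cre. Kansl1 is the gene of a protein in the NSL histone acetyltransferase complex. The genes were the rows of the expression table whose symbol was Rtl8a, Rtl8b, Rtl8c, Rtl3, Rtl5, Rtl6, Peg10 or Ldoc1, which gave 8 of 26898 genes. Rtl8c was taken because its level was among the most reduced in the knockout in these same samples, and its values are therefore given as a description, with no test. The other 7 genes were taken as its relatives, to ask whether related genes also differed and whether near-identical Rtl8 copies could share reads. The WT group was Kansl1 fl/fl and the KO group was Kansl1 fl/fl/CAG-cre, both C57BL/6, with 3 samples in each (WT 4, 5 and 8, and KO 3, 7 and 10). Cells of both groups came from mid-gestation embryos, were at passage 3 in medium with 10% fetal bovine serum per the labels, and received 1 μM tamoxifen for 48 h. The CAG promoter is broadly active and the Cre is activated by tamoxifen, and an effect of Cre itself cannot be told apart from the loss of Kansl1. A figure legend of the study gives 3 mice in each group, and its methods describe cells from embryos with n = 3. Those methods also give a serum content for MEFs that differs from the labels.

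The labelled state was checked in each sample. Kansl1 had TPM values of 28.5, 26.7 and 24.4 in the WT samples 4, 5 and 8 and of 13.7, 15.8 and 14.4 in the KO samples 3, 7 and 10, so that 55.1% of the WT level was left over the whole gene. TPM divides the reads of a gene by its length and scales each sample to the same total. Recovered reads assigned to genes ranged from 17654338 in KO 3 to 27716119 in KO 7. All 10 fibroblast markers averaged at least 1 TPM and summed to between 10276 and 14856 TPM in each sample. The 6 macrophage markers summed to 29.0 to 32.8 TPM in WT and 67.5 to 138.0 TPM in KO samples, the 4 epithelial markers to 40.4 to 45.7 and 49.2 to 66.3 TPM, and the 4 endothelial markers to 1.10 to 1.87 and 2.31 to 3.10 TPM. None of these was at 0 in all samples, and the part of other cell types in the results below was not tested. The 4 neural markers overlapped between groups, and 1 of 4 trophoblast markers was in the table, at up to 0.423 TPM. In KO 7, Xist, the RNA that coats the inactive X chromosome, reached 117.4 TPM and the Y-linked Ddx3y had 0 reads, whereas Xist was at or below 0.0230 TPM and Ddx3y at or above 49.6 TPM in the other 5 samples. Since 6 of the 8 genes are X-linked, differences without KO 7 are given beside the main ones.

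The Rtl genes, Peg10 and Ldoc1 were domesticated from the gag gene of sushi-class retrotransposons, elements whose Gag protein builds a capsid. They no longer transpose, and several are known for roles in the placenta: Peg10 and Rtl1 are imprinted genes that placental development needs, and Ldoc1 takes part in the maturation of placental endocrine cells. Peg10 has kept a retroviral frameshift and a Gag that assembles capsids. The Rtl8 genes encode short Gag-like proteins that have been found with ubiquilins, which carry ubiquitinated proteins to the proteasome. Rtl5 and Rtl6 have been described in microglia of the brain.

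The Rtl8 copies lie beside each other on chromosome X, and their coding sequences show how far reads could be shared. By GENCODE M21 on mm10, Rtl8c (ENSMUSG00000051851.5) lies at chrX:53608032-53608432 on the plus strand, Rtl8a (ENSMUSG00000067925.4) at chrX:53642488-53643682 and Rtl8b (ENSMUSG00000067924.4) at chrX:53669177-53670408, both on the minus strand. Each is a single exon and protein coding. The coding sequence of Rtl8c runs from 53608046 to 53608384, that of Rtl8a from 53643280 to 53643621 and that of Rtl8b from 53669957 to 53670298. The first 300 coding bases follow, 5′ to 3′ from the start codon, taken from the GENCODE transcripts. Capitals mark the bases that differ between the pair shown or lie in a gap of their alignment.
Rtl8a and Rtl8b: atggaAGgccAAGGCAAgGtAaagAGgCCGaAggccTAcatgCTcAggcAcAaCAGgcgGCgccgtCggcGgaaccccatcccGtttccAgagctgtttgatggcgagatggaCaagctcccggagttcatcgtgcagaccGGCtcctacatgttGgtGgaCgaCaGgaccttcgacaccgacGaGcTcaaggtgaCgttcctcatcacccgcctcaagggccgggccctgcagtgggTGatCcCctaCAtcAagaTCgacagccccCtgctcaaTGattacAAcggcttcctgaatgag
Rtl8c: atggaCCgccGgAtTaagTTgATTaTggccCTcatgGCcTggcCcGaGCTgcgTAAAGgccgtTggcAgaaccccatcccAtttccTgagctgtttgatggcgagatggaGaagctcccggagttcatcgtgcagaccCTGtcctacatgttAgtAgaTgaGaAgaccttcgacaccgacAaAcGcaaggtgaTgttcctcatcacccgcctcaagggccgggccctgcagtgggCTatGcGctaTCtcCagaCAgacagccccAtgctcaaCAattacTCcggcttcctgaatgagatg
With the stop codon, the coding sequences of Rtl8a and Rtl8b were identical over all 342 bases (113 codons). That of Rtl8c had 339 bases (112 codons) and matched them at 279 of 336 aligned bases (83.04%), with 57 mismatches and 9 bases in gaps. The differences crowded at the start: of the bases of Rtl8a, 29.82% of the first 114, 10.53% of bases 115 to 228 and 14.91% of bases 229 to 342 differed from Rtl8c or lay in a gap. Over whole transcripts, Rtl8a and Rtl8b matched at 1178 of 1183 aligned bases (99.58%), with 61 more bases in gaps.

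Windows of the transcripts were then looked up in the transcripts of all other genes, on either strand. Of the 50-base windows, 84.99% of Rtl8a (974 of 1146) and 79.97% of Rtl8b (946 of 1183) were also found in another gene, mostly the other copy. Gm14597, a gene described below, held 67 of these windows of Rtl8a and 39 of Rtl8b. At 150 bases the shares were 62.43% for Rtl8a and 60.3% for Rtl8b. Rtl8c shared 6 of 352 windows of 50 bases (1.705%), 0 of 302 of 100 bases and 0 of 252 of 150 bases. The longest exact run was 770 bases between Rtl8a and Rtl8b and 55 bases between Rtl8c and either of them. The 5 other genes shared no window of 50, 100 or 150 bases with another gene. Reads of Rtl8c could thus be assigned to it alone at nearly every position, whereas the values of Rtl8a and Rtl8b depend on how the counting treated reads with 2 places, which was not stated. Sequence outside transcripts was not searched.

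**Figure D1:**
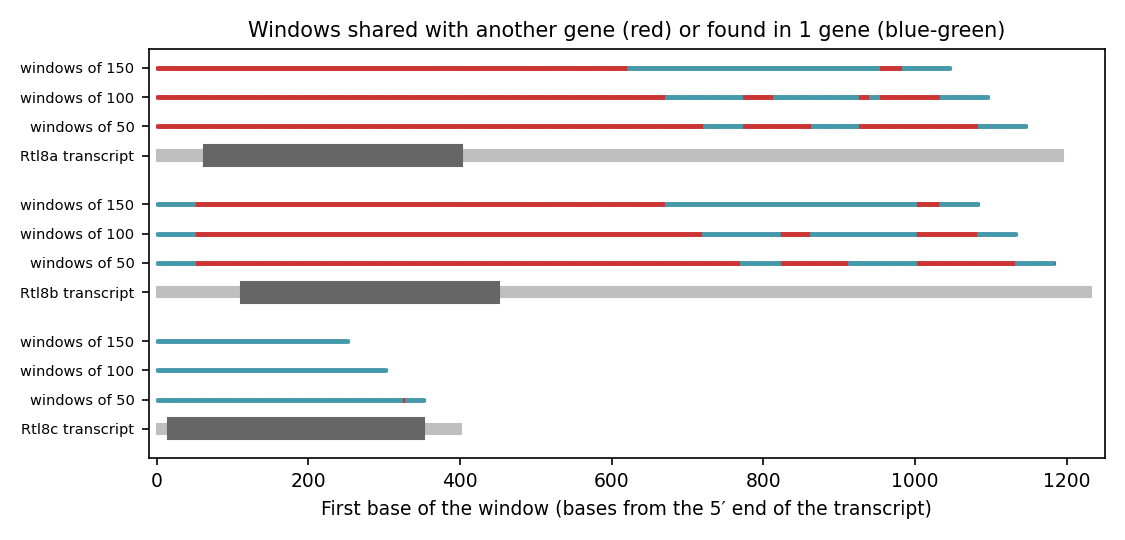
Windows of 50, 100 and 150 bases along the Rtl8a, Rtl8b and Rtl8c transcripts, by the position of their first base in bases from the 5′ end. Each window is marked as shared with another gene or found in 1 gene, and long shared stretches stand in Rtl8a and Rtl8b, whereas Rtl8c had 6 shared windows of 50 bases and 0 of the longer sizes.

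The 250 bases before the RefSeq start (GRCm38.p6) of Rtl8b, whose groups overlapped, and of Rtl8c, whose groups did not, are shown because they share an exact run of 44 bases, in capitals.
Rtl8b: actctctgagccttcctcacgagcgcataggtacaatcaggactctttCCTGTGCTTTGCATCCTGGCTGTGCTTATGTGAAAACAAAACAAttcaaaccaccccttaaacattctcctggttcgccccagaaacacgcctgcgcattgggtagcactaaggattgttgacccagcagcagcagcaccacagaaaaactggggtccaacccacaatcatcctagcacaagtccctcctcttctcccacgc
Rtl8c: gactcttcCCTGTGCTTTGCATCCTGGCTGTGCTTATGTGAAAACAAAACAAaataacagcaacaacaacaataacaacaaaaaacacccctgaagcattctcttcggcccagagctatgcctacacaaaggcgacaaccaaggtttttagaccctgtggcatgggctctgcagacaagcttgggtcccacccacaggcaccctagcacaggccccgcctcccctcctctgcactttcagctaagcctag
The Rtl8b window is chrX:53670438-53670687 on the minus strand and the Rtl8c window chrX:53607672-53607921 on the plus strand. The run began 202 bases before the start of Rtl8b and 242 bases before that of Rtl8c, whereas the longest run shared with Rtl8a was 10 bases for Rtl8b and 9 bases for Rtl8c. RefSeq windows were found for 7 of the 8 genes, all but Peg10. Read on both strands, the TATA box letters TATAAA were in 0 of these 7 windows and in 12.37% of all 32851 windows. The GC box letters GGGCGG were likewise in 0 of 7 and in 32.74% of all windows, and the E-box letters CACGTG in 0 of 7 and in 6.021%. The letters CCAAT, found in 33.85% of all windows, matched at 2 places in Rtl8a, 1 in Rtl8b and 1 in Rtl3 and had no match in Rtl8c, Rtl5, Rtl6 or Ldoc1. The Rtl8c window held 3 CG dinucleotides, that of Rtl8a 5 and that of Rtl8b 6, against a median of 6 over all windows. Those of Rtl5, Rtl6 and Ldoc1 held 15, 12 and 12.

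Rtl8c was the member that stood furthest apart in the KO samples. Its level was 21.8, 26.2 and 29.7 TPM in WT samples 4, 5 and 8 and 3.43, 6.18 and 6.14 TPM in KO 3, 7 and 10. Every KO sample was below every WT sample, and KO 3 was the lowest. Groups did not overlap, in either direction, in 43.2% of the tested genes. The means were 25.9 ± 3.94 TPM in WT and 5.25 ± 1.58 TPM in KO (SD, n = 3 each), or 20.3% of the WT level. On the log2(TPM + 1) scale, which understates changes of low genes, the difference was -2.13 with an SE of 0.20, and -2.25 without KO 7. This SE and those below come from limma, which moderates each gene's variance toward a trend over all tested genes. Ranked from the lowest, the difference of -2.13 was place 12 of 14799 tested genes, between Tmem14a at -2.16 and Plgrkt at -2.10, and Rtl8c was selected on it. In RNA from whole cultures, fewer cells of a type and less RNA per cell cannot be told apart.

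The reads behind these values were few. Rtl8c had 71, 92 and 113 recovered reads in WT 4, 5 and 8, with exact Poisson 95% intervals of 55.5 to 89.6, 74.2 to 112.8 and 93.1 to 135.9. KO 3, 7 and 10 had 10, 24 and 22 reads, with intervals of 4.80 to 18.4, 15.4 to 35.7 and 13.8 to 33.3. These intervals cover counting error only, as reads carried no molecular identifiers, and are not scaled for the depth of each sample. As a share of all assigned reads, Rtl8c in KO stood at 20.1% of WT, beside 20.3% in TPM.

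The TPM of Rtl8c was made with a gene length of 401 bases, since this length gave whole reads in 6 of 6 samples and the RefSeq span of 1214 bases gave whole reads in 0 of 6. The RefSeq span runs on past the GENCODE model, so reads from that stretch were not part of these values. On the opposite strand, 4933416I08Rik (Gm14597 in GENCODE) has an exon at chrX:53608868-53608979, which lies inside the longer RefSeq span of Rtl8c and shares 0 bases with the model that was counted. It stood at 3.92 ± 0.427 TPM in WT and 1.97 ± 0.423 TPM in KO (n = 3 each), a difference of -0.73 that did not pass the thresholds (limma, adjusted p = 0.0108). These values rest on 27 to 31 reads in WT and 9 to 17 in KO. Its transcript shares windows with the much higher Rtl8a and Rtl8b, and whether their reads entered its level was not tested. The NEBNext Ultra RNA kit used is not a directional one, and reads from that exon cannot be told apart from an extended Rtl8c transcript.

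**Figure D2:**
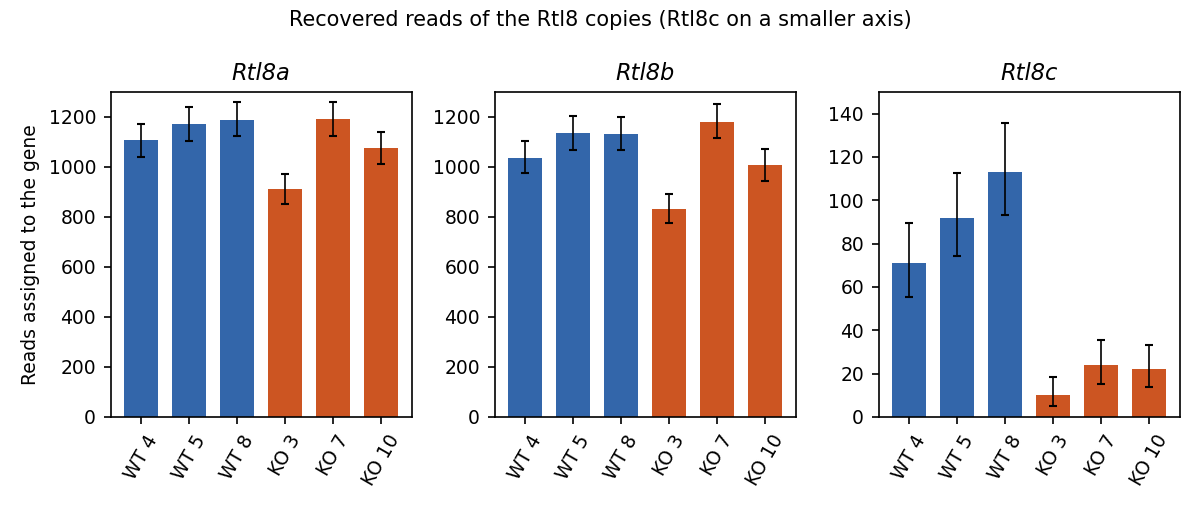
Recovered reads assigned to Rtl8a, Rtl8b and Rtl8c in each of the 6 samples, with exact Poisson 95% intervals as bars and a smaller axis for Rtl8c. Rtl8c had 71 to 113 reads in WT and 10 to 24 in KO samples, whereas Rtl8a and Rtl8b had 833 to 1192 reads in every sample.

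Rtl8a and Rtl8b, the other copies, differed little. Rtl8a was at 114.2, 111.7 and 104.9 TPM in WT samples 4, 5 and 8 and at 104.9, 102.9 and 100.7 TPM in KO 3, 7 and 10. The groups overlapped only through KO 3 at 104.932 TPM against WT 8 at 104.919 TPM, and 2 KO samples were below every WT sample. The means were 110.3 ± 4.80 and 102.8 ± 2.14 TPM (SD, n = 3 each). Rtl8b was at 103.9, 105.0 and 96.8 TPM in WT cells and at 93.0, 98.9 and 91.5 TPM in KO samples. Its groups overlapped through KO 7, while the other KO samples were below every WT sample. Its means were 101.9 ± 4.43 and 94.5 ± 3.92 TPM. The log2 difference was -0.10 (SE 0.09) for Rtl8a and -0.11 (SE 0.09) for Rtl8b, beside a median of -0.07 over all tested genes. Without KO 7 these were -0.10 and -0.14.

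The split of the Rtl8 signal between the copies was followed in each sample. The ratio of Rtl8a to Rtl8b TPM was 1.08 ± 0.018 in WT and 1.09 ± 0.045 in KO (n = 3 each), and ran from 1.04 in KO 7 to 1.13 in KO 3. The share of Rtl8c in the summed TPM was 9.11%, 10.8% and 12.8% in WT 4, 5 and 8 and 1.70%, 2.97% and 3.10% in KO 3, 7 and 10. The summed TPM was 238.0 ± 5.90 in WT and 202.6 ± 4.97 in KO, with every KO sample lower in TPM, where the short Rtl8c model weighs more than in reads. Its log2 difference was -0.23 in TPM, -0.14 with median-of-ratios scaling of TPM and -0.13 by voom on recovered reads. As reads per 1000000 assigned, Rtl8a was 48.5, 48.2 and 50.01 in WT samples 4, 5 and 8 and 51.7, 43.0 and 44.6 in KO samples 3, 7 and 10, and Rtl8b was 45.5, 46.7 and 47.6 in WT and 47.2, 42.6 and 41.9 in KO samples. KO 3, which had the lowest Rtl8c, thus had the highest Rtl8a on this scale, while KO 7 and KO 10 were below every WT sample for both copies. Whether reads moved between the copies was not tested.

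**Figure D3:**
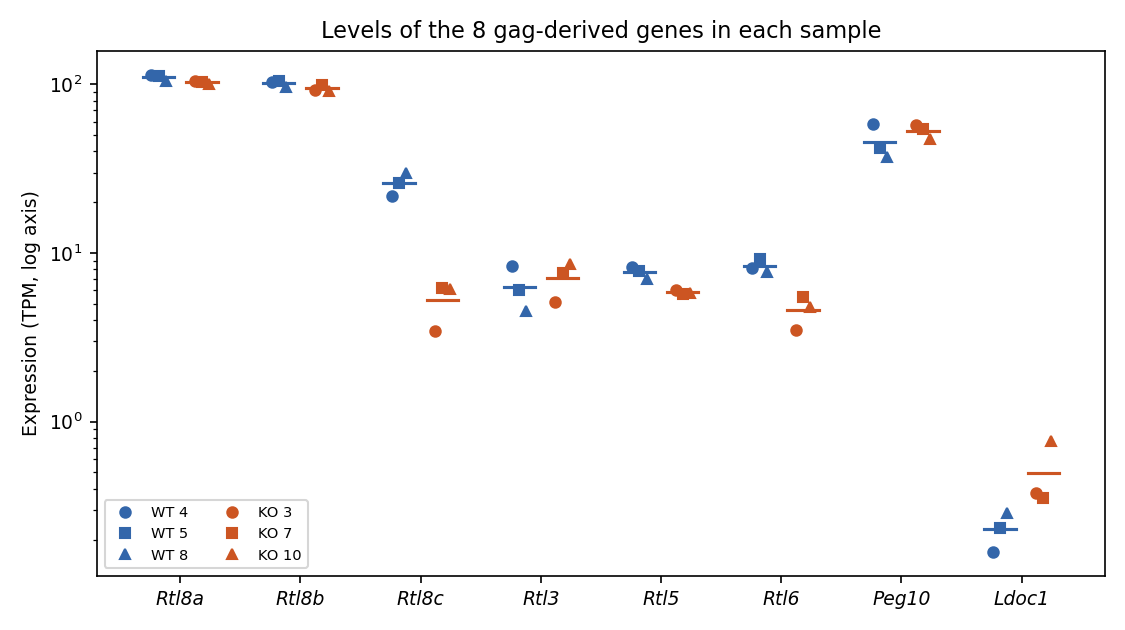
Expression of the 8 genes in TPM on a log axis, with 1 point for each of the 3 WT and 3 KO samples and the mean of each group. Rtl8c, Rtl6, Rtl5 and Ldoc1 had groups that did not overlap, and the other 4 genes overlapped, where the groups did not overlap in 43.2% of all tested genes.

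The levels of the genes spanned a wide range, and compared per length in TPM their order was the following. In WT, Rtl8a and Rtl8b overlapped at the top, followed by Peg10 and Rtl8c, then Rtl6, Rtl5 and Rtl3, whose neighbours in the order overlapped, and last Ldoc1. In KO, Rtl8a, Rtl8b and Peg10 led without overlap, Rtl3, Rtl5, Rtl8c and Rtl6 followed with overlapping neighbours, and Ldoc1 was again last. The length of Rtl8c used here enters its place in this order.

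Among the 5 genes outside the Rtl8 group, 0 passed the thresholds, where limma called 10.7% of all 14799 tested genes. Of these 5, 4 passed the filter of 1 TPM in the mean of a group and were tested, 2 of them had an unadjusted p under 0.05, and voom on recovered reads called 1. Over all tested genes, 39.4% had an unadjusted p under 0.05 and voom called 17.5% of the 14790 genes in its fit, so these counts from 4 genes set nothing apart. A gene was called at an adjusted p under 0.005 and a log2 difference beyond 0.5 in either direction, and the called genes were 9.03% of the tested genes for lower and 1.64% for higher.

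Rtl6 (ENSMUSG00000055745.4, chr15:84553398-84557823) came nearest to a call. Its level was 8.17, 9.20 and 7.67 TPM in WT samples 4, 5 and 8 and 3.48, 5.48 and 4.81 TPM in KO 3, 7 and 10. All KO samples were below all WT samples, and KO 3 was again the lowest. The means were 8.35 ± 0.779 and 4.59 ± 1.02 TPM (SD, n = 3 each), and KO stood at 55.0% of WT. The log2 difference was -0.76 with an SE of 0.16, and limma gave an adjusted p of 0.00730, short of the threshold of 0.005. Over the alternatives the adjusted p ranged from 0.000728 to 0.0329, and Rtl6 was called with median-of-ratios scaling and with voom. Rtl6 had 293 to 357 reads in WT and 112 to 235 in KO samples, and the difference without KO 7 was -0.87.

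Rtl5 (ENSMUSG00000049191.12, chrX:102066544-102071304) also had groups that did not overlap. Its level was 8.24, 7.86 and 7.00 TPM in WT samples 4, 5 and 8 and 6.01, 5.74 and 5.81 TPM in KO 3, 7 and 10. Group means were 7.70 ± 0.636 and 5.85 ± 0.136 TPM (SD, n = 3 each), or 76.0% of WT. The log2 difference of -0.34 (SE 0.12) did not pass (limma, adjusted p = 0.0600, 0.0124 to 0.185 over the alternatives), and it was -0.33 without KO 7.

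Peg10 (ENSMUSG00000092035.8, chr6:4747306-4760517) was well expressed and its groups overlapped. It was at 58.3, 42.2 and 36.9 TPM in WT samples 4, 5 and 8 and at 57.5, 54.0 and 47.2 TPM in KO 3, 7 and 10, with the highest and the lowest sample both in WT. The means were 45.8 ± 11.2 and 52.9 ± 5.26 TPM (SD, n = 3 each). The log2 difference of 0.23 (SE 0.16) did not pass (limma, adjusted p = 0.332). It was 0.41 without WT 4 (limma, adjusted p = 0.0390), 0.09 without WT 8 and 0.21 without KO 7, and the adjusted p ranged from 0.0390 to 0.725 over the alternatives.

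Rtl3 (ENSMUSG00000047686.9, chrX:106837082-106840644) overlapped as well. It was at 8.37, 6.00 and 4.51 TPM in WT samples 4, 5 and 8 and at 5.13, 7.60 and 8.55 TPM in KO 3, 7 and 10, and the means were 6.29 ± 1.95 and 7.09 ± 1.76 TPM (SD, n = 3 each). The log2 difference of 0.16 (SE 0.22) did not pass (limma, adjusted p = 0.627), and it was 0.36 without WT 4, -0.03 without WT 8, 0.35 without KO 3, 0.10 without KO 7 and 0.03 without KO 10.

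Ldoc1 (ENSMUSG00000057615.5, chrX:61709497-61710955) was near the detection limit and was not tested. It was at 0.169, 0.234 and 0.289 TPM in WT samples 4, 5 and 8 and at 0.377, 0.354 and 0.768 TPM in KO 3, 7 and 10. These values rest on 2 to 4 reads in WT and 4 to 10 reads in KO samples, or 9 and 19 reads in all. Every KO sample was above every WT sample, but the exact Poisson 95% intervals of the reads overlapped between the groups.

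**Figure D4:**
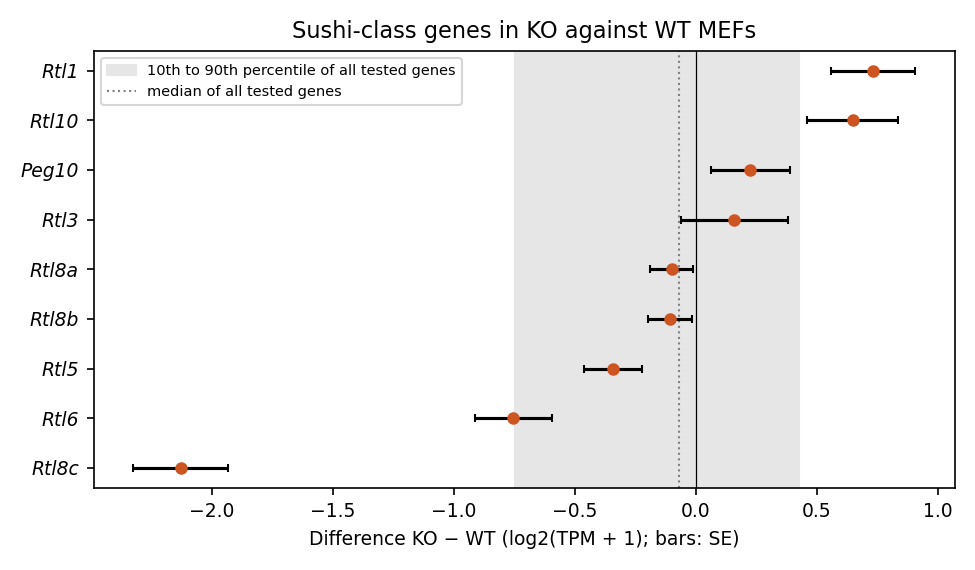
Difference of KO minus WT on the log2(TPM + 1) scale for each tested sushi-class gene, without Ldoc1, Rtl4 and Rtl9, which were not tested. Bars are the SE moderated by limma. The dotted line is the median of all tested genes and the grey band their 10th to 90th percentile. Rtl8c stood at -2.13 and Rtl6 at -0.76, both under the 10th percentile of -0.75, and Rtl1 at 0.73 and Rtl10 at 0.65 lay above the 90th percentile of 0.43.

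The remaining genes of the sushi class were Rtl1, Rtl4, Rtl9 and Rtl10. Of the 12 genes of the class, 9 were in the fit, the 3 Rtl8 copies among them, and of the other 6 limma called 0, with 4 at an unadjusted p under 0.05 (39.4% of all tested genes) and 2 called by voom (17.5% of the genes it tested). The median log2 difference was 0.19 for these other 6, beside -0.07 over all tested genes. For all 9, which include the selected Rtl8c, it was -0.10. Rtl1 (chr12:109589193-109600330), an imprinted gene needed for placental vessels, was at 0.970, 0.933 and 1.11 TPM in WT samples 4, 5 and 8 and at 2.42, 1.96 and 2.64 TPM in KO 3, 7 and 10. Every KO sample was above every WT sample, but the difference of 0.73 (SE 0.17) did not pass (limma, adjusted p = 0.0128, 0.00224 to 0.0661 over the alternatives). Voom called it higher. Rtl10 (chr16:18498901-18501658) was at 3.71, 4.75 and 7.07 TPM in WT cells and at 8.74, 8.71 and 7.90 TPM in KO samples, without overlap. Its difference of 0.65 (SE 0.19) did not pass (limma, adjusted p = 0.0292). Rtl4 averaged 0.436 and 0.357 TPM and Rtl9 0.0806 and 0.140 TPM in WT and KO, and neither was tested.

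Other genes derived from gag or from retroelements were counted in the same fit. In the PNMA family, whose Gag comes from another class of element, 11 genes were listed, 5 could be paired with a row of the table, 2 of these were tested and 0 were called by limma, with 1 at an unadjusted p under 0.05 (39.4% over all genes) and 1 called by voom (17.5%). Ccdc8, a component of a complex with cullin 7, averaged 14.8 ± 2.79 TPM in WT and 13.1 ± 1.98 TPM in KO. Zcchc18 averaged 1.40 ± 0.438 and 0.453 ± 0.132 TPM, a difference of -0.71 (limma, adjusted p = 0.0362), and it reached the filter of 1 TPM in WT only. Of 7 further retroelement-derived genes, 5 were tested, with 4 at an unadjusted p under 0.05 (39.4% over all genes) and 2 called by voom (17.5%). Limma called 0 higher and 1 lower, beside 1.64% higher and 9.03% lower over all tested genes. This was Nynrin, which fell from 8.19 ± 0.998 TPM to 3.62 ± 0.95 TPM, by 1.01 on the log2 scale (limma, adjusted p = 0.00291), and it was not called without WT 4, WT 5, WT 8 or KO 3, each left out in turn, nor when all genes of the table were tested. Fv1, a gag-derived gene that restricts murine leukaemia virus, averaged 10.1 ± 1.67 and 6.79 ± 0.384 TPM and did not pass, with a difference of -0.50 (limma, adjusted p = 0.0220). Arc, the neuronal gene whose Gag forms RNA-carrying capsids, averaged 3.14 ± 0.510 and 4.39 ± 0.676 TPM (limma, adjusted p = 0.107), and Syna, an envelope-derived fusogen of the placenta, 0.774 ± 0.258 and 1.40 ± 0.527 TPM (limma, adjusted p = 0.207).

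The partners of the Rtl8 and Peg10 proteins were measured too. Of Ubqln1, Ubqln2, Ubqln4 and the ubiquitin ligase Ube3a, all 4 were tested and 0 were called by limma, with 1 at an unadjusted p under 0.05, beside 39.4% of all tested genes, and 0 called by voom, beside 17.5%. Ubqln2 averaged 85.3 ± 4.55 TPM in WT and 101.8 ± 6.99 TPM in KO, a difference of 0.25 (limma, adjusted p = 0.0831). Ubqln1, Ubqln4 and Ube3a had differences of -0.12, 0.08 and -0.05.

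Genes that silence retroelements were listed because gag-derived genes descend from their targets. Of 12 listed, all 12 were tested, 0 were called higher and 1 lower, or 8.33% lower, near the 9.03% of all tested genes, so the count is no result about the list. Uhrf1, which brings the maintenance methyltransferase to newly replicated DNA, fell from 74.1 ± 5.01 TPM to 40.2 ± 7.31 TPM, by 0.88 on the log2 scale (limma, adjusted p = 0.00179), and it was not called without WT 5 or when all genes of the table were tested. Dnmt1, that methyltransferase, averaged 60.5 ± 4.71 and 40.4 ± 6.29 TPM and did not pass, at -0.58 (limma, adjusted p = 0.00936). Trim28, the corepressor of KRAB zinc finger proteins, and Morc2a, which works with the HUSH complex, had differences of 0.07 and 0.14.

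Genes that lie near the members were counted as well. Of 32 tested genes within 500 kb of a member, 0 were called higher and 7 lower, or 21.88% lower beside 9.03% of all tested genes. Of the 32, 16 had an unadjusted p under 0.05, beside 39.4% of all tested genes. Median-of-ratios scaling called 8 neighbours and 1939 genes in all, and voom on recovered reads called 9 neighbours and 2582 genes in all. When all 26898 genes of the table were tested with no filter, 0 neighbours and 341 genes in all were called. None of the 7 lay near the Rtl8 copies, where only 4 genes were tested, too few to set against the share over all genes. With 1 sample left out, 3 to 6 neighbours and 758 to 1081 of all tested genes were called. Of the neighbours, 3 were called without KO 3 and without KO 7, and 4 without WT 4 and without WT 5. The 4 genes near the Rtl8 copies, all named here whether or not they were called, were 4933416I08Rik, given above, Fam122b at -0.51 (limma, adjusted p = 0.0225), Gm14584 at 0.44 and Mospd1 at 0.09. Near Peg10, its imprinted neighbour Sgce, 99 bases away, averaged 7.42 ± 0.433 and 5.39 ± 0.408 TPM and did not pass, at -0.40 (limma, adjusted p = 0.0359). Gm44250, 455741 bases away, was at 4.40 ± 0.467 and 0.951 ± 0.414 TPM and so past the filter in WT only. It fell by 1.49 on the log2 scale (limma, adjusted p = 0.000725). Pon3, 460335 bases away, fell by 1.28 (limma, adjusted p = 0.000586). Gm44250 and Pon3 lie next to each other on the minus strand, and whether they are separate transcripts was not tested.

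Near Rtl5, the called genes were Pin4, Ercc6l and Hdac8, all lower, with log2 differences of -0.61, -0.95 and -1.26 (limma, adjusted p = 0.00208, 0.00275 and 0.00111). Hdac8, at 3.47 ± 0.458 and 0.866 ± 0.212 TPM, passed the filter in WT only. Nhsl2, which overlaps the span of Rtl5 on the opposite strand but shares 0 exon bases with it, was at 0.02. Lpar4 near Rtl3 fell by 0.93 (limma, adjusted p = 0.00164) and Samm50 near Rtl6 fell by 0.72 (limma, adjusted p = 0.00309). The nearest tested genes on the remaining sides, Fndc3c1 for Rtl3, Parvb and Prr5 for Rtl6 and Gm7327 for Ldoc1, had differences of -0.25, -0.28, -0.19 and 0.07 and were not called. Over chromosome X without the 8 genes, 4 of 510 tested genes were called higher and 40 lower, or 8.63%, beside 10.7% of all tested genes. With all samples, 44 of these X-linked genes and 1579 of all tested genes were called. With 1 sample left out, these counts were 19 to 29 and 758 to 1081.

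The genes whose log2(TPM + 1) followed Rtl8c most closely over the 6 samples were Pef1, Apobec3, Mief2, Chd1l and Pex11a, with Pearson r of 0.9993, 0.999, 0.998, 0.9972 and 0.9969. The samples fall into 2 groups that set these values, and 1308 of 14799 tested genes had an r above 0.95, so this is a description only. Pef1, a calcium-binding protein, averaged 43.4 ± 2.26 TPM in WT and 20.8 ± 2.68 TPM in KO. Apobec3, a cytidine deaminase that restricts retroviruses, averaged 1.57 ± 0.130 and 0.437 ± 0.140 TPM. Among the relatives, Rtl6 had an r of 0.956, Rtl5 of 0.855, Rtl8b of 0.705 and Rtl8a of 0.646, and Rtl3 and Peg10 were at -0.207 and -0.606.

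**Figure D5:**
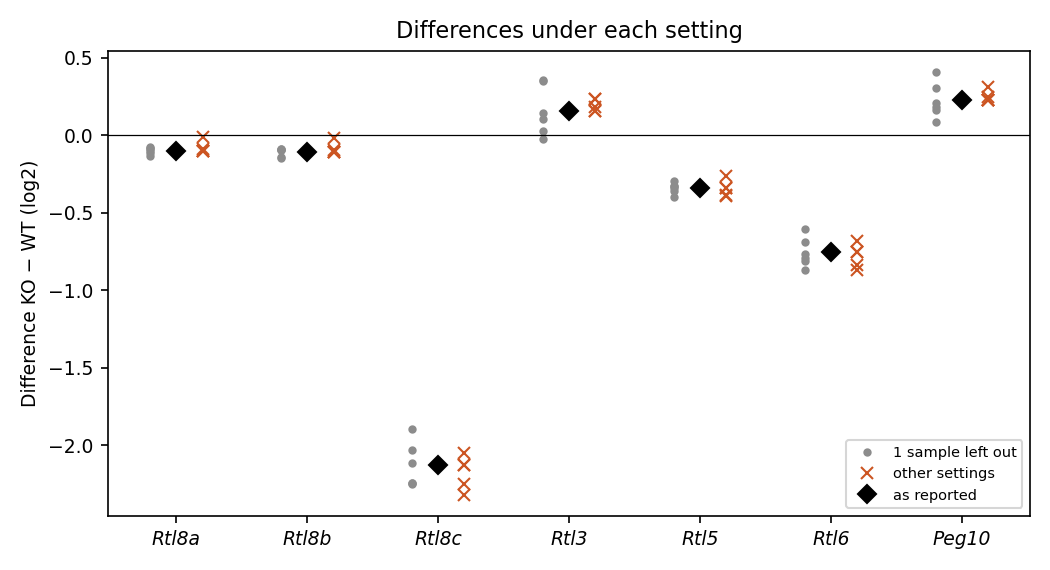
Difference of KO minus WT on the log2 scale for each of the listed genes but Ldoc1, as reported, with 1 sample left out, and under the other settings. Rtl8c stayed between -2.32 and -1.90 and Rtl6 between -0.87 and -0.60, whereas Rtl3 crossed 0 when WT 8 was left out.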

How the data were processed

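The authors deposited a table of 26898 genes with TPM values for 6 samples. Per the study's methods, libraries were made with a NEBNext Ultra RNA kit, and STAR served for alignment to mm10 and DESeq2 for the authors' own test. The submitters' processing notes name Bowtie 0.12.2 with no role. The counting program and annotation are not given in the sources used here. The authors also deposited log2 fold changes and adjusted p-values of their own comparison, which were not used.

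Gene IDs were matched to GENCODE M21 (26876 matched, 22 did not). TPM multiplied by merged exon length gave whole reads at a tolerance of 0.05, which describe depth (17654338 to 27716119 reads per sample).

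Levels were compared as log2(TPM + 1) in limma 3.58.1 (R 4.3.3) with a variance trend and no covariate, over the 14799 genes that averaged 1 TPM or more in WT or KO. Adjustment was by Benjamini-Hochberg over all tested genes, and calls needed an adjusted p under 0.005 and a log2 difference above 0.5 or below -0.5. The test was checked on simulated data. The p-values measure the spread between these 3 samples per group, and with 3 per group their precision is limited.

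The genes, lists and tests were chosen with earlier results of these data known. The genes named are the 8 genes, the rest of the sushi class, up to 4 of each other list (called ones first, then the highest mean), the 5 most like Rtl8c, the nearest tested neighbour on each side and up to 6 called neighbours, while Fam122b, Gm14584 and Mospd1 beside the Rtl8 copies, and Tmem14a and Plgrkt next to Rtl8c in rank, were added after their values were seen. Sequences came from GENCODE transcripts and RefSeq (GRCm38.p6). Alternatives were the pseudocount, the filter, scaling, voom on recovered reads, summed Rtl8 copies and leaving out each sample.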

Additional observations from a re-analysis of the deposited data

How the results depend on the processing

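Rtl8c stayed between -2.32 and -1.90 on the log2 scale under every alternative run. No paired analysis was possible because no replicate number occurs in both groups. With median-of-ratios scaling, under which the overall median shifted by 0.077, the log2 difference was -0.011 for Rtl8a, -0.020 for Rtl8b and -0.143 for the summed copies, and 442 genes were called higher. That scaling called 1 gene outside the Rtl8 copies, both among the listed members and in the sushi class, which was Rtl6 at -0.681 (limma, adjusted p = 0.00319). With the same scaling, 8 neighbours were called. Voom on recovered reads called 2582 genes, 433 higher and 2149 lower. It called 1 member outside the Rtl8 copies and 2 of the sushi class without the Rtl8 copies (Rtl6 at -0.836 and Rtl1 at 1.197). It also called 1 of the PNMA family, 2 of the other retroelement-derived genes, 2 of the silencing genes, 9 neighbours and 79 X-linked genes. Voom put the summed Rtl8 copies at -0.128. With all 26898 genes tested, 341 were called, 55 higher and 286 lower, with 7 X-linked genes and 0 of the other retroelement-derived, silencing or neighbouring genes, so that Nynrin and Uhrf1 lost their calls. At a mean of at least 10 TPM, 1503 genes were called in all, from a smaller set of tested genes whose size is not given here. Among them were 0 of the other retroelement-derived genes, 2 silencing genes and 4 neighbours. Nynrin and the neighbours Pon3, Gm44250 and Hdac8 stay under that filter and were not in the fit. Without the share over all genes of that fit, these counts are not read as a result. The causes of the other shifts were not tested.

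With 1 sample left out, 758 to 1081 genes were called, 84 to 252 higher and 617 to 938 lower, with 19 to 29 X-linked genes, 3 to 6 neighbours, 0 to 1 of the other retroelement-derived genes and 0 to 1 of the silencing genes. Nynrin lost its call without WT 4, WT 5, WT 8 or KO 3, each in turn, and Uhrf1 without WT 5. None of the members outside the Rtl8 copies, the PNMA family, the ubiquilin list or the rest of the sushi class was called in these 6 fits. Rtl8c ranged from -2.248 to -1.899, Rtl8a from -0.134 to -0.073, Rtl8b from -0.144 to -0.085 and their sum from -0.252 to -0.217. Rtl3 ranged from -0.026 without WT 8 to 0.358 without WT 4, beside 0.160 with all samples. Of the values for single genes outside the Rtl8 copies, Rtl1 and Rtl10 included, 63 kept their side of the thresholds, 3 passed them and 1 turned its sign. Of the counts of called genes and the Rtl8 differences, 118 stayed within a set margin of the main value and 56 moved beyond it. Low read numbers limit Ldoc1 and Rtl8c in KO samples.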
